A study of Mus musculus with 4 samples.

Results

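The spots described here are unmarked spots of a 5xFAD mouse brain section, that is, spots carrying neither a plaque mark nor the mark of a plaque's neighbour, set against spots of a wild-type section. Spatial gene expression was measured with Visium, an array of barcoded spots that each capture RNA from the tissue above them, so a spot can hold several cells or parts of cells. The 5xFAD section held 2347 spots, of which 324 were marked as plaque spots, 628 as neighbours and 1395 carried no mark. After 6 deposited expression clusters (10, 12, 13, 15, 17 and 21) were left out, 1208 unmarked 5xFAD spots and 2267 wild-type spots remained. Matching by deposited region label, with at least 30 spots of each group in a region, left 1070 unmarked 5xFAD spots and 1963 wild-type spots in 9 regions, of 10549 spots in the whole series. No spot of the wild-type section carried a mark. The sources used here do not say how regions, clusters and marks came about, so an unmarked spot is one without a mark and not one shown to be free of amyloid.

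The 5xFAD mouse carries mutated human genes of familial Alzheimer's disease, APP among them, as transgenes expressed in neurons from elements of the mouse Thy1 gene, and it forms amyloid plaques. It was set against a C57BL/6J wild-type mouse. A second pair of sections, which shares no section with the first, is given beside many of the results. It is 5xFAD-Dp16, which carries the same transgenes on top of a segmental duplication of chromosome 16, and Dp16, which carries the duplication alone. All 4 were males aged 9 months, each genotype was 1 brain hemisphere section of 10 µm taken between bregma 1 and -2 mm, and the counts were made on the mouse build mm10, so that transcripts of the human transgenes have no row of their own. With 1 section per genotype there is no replicate check and no test, and every interval below is a 95% interval that covers counting error only. Differences between 2 animals or 2 cuts of the brain lie outside these intervals.

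The unmarked 5xFAD spots held 10740673 UMIs and the wild-type spots 24587234, with medians of 8720 and 11632 UMIs per spot and of 14.7 and 15.2% mitochondrial UMIs. Levels are CPM, UMIs of a gene scaled to the same total in every group and region, averaged over the 9 regions with 1 set of weights for both groups, and a log2 ratio is unmarked 5xFAD over wild-type unless another pair is named. A ratio of 1.5-fold or more, a log2 of 0.58, is counted as higher or lower. The limit of 5 CPM was set on the mean of both groups, so a gene low in 1 group could pass it through the other. For a gene below 5 CPM in 1 group, the sign of the ratio was thus fixed in advance by the limit. That limit was reached by 11008 genes. Of these, 169 (1.54%) differed by 1.5-fold upwards in unmarked 5xFAD spots and 166 (1.51%) downwards, 3.04% in either direction. The same shares were 1.4% up, 1.06% down and 2.46% together in the second pair, and 1.23% up, 2.81% down and 4.04% together for Dp16 over wild-type. With TMM scaling the same split was 199 higher and 116 lower, relative to the median of all genes it was 220 and 94, and without mitochondrial, ribosomal protein and haemoglobin genes 254 and 139. The median log2 ratio of all genes was -0.08, against which each list below is read. Within the same region labels the 2 sections did not hold the same expression clusters: cluster 1 held 9.16% of unmarked 5xFAD spots and 23.7% of wild-type spots, and cluster 4 held 118 and 33 of these spots. The 5xFAD and wild-type sections shared 2071 spot barcodes, which mark positions on the array and not cells.

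Microglia, the resident macrophages of the brain, gather around amyloid plaques and there switch on a shared set of genes for lipid handling, lysosomes and phagocytosis, a step that depends on the receptor Trem2 and its adaptor Tyrobp. Astrocytes near plaques raise Gfap and other reactive genes, and both cell types are sources of complement.

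Most of the plaque-associated microglial genes were higher in unmarked 5xFAD spots. Of 43 plaque-associated microglial genes in the list, 31 reached 5 CPM, and 20 of these were at least 1.5-fold higher in unmarked 5xFAD spots, none was lower, and the list median was 0.81 (1.54% of all genes were that much higher). All 31 measured ratios lay above 0, against 34.3% of all genes. Cst7, Ccl3, Ccl6, Bcl2a1b and Fcgr2b were below 5 CPM in wild-type spots and passed the limit only through unmarked 5xFAD spots. For these a ratio above 0 was fixed in advance by the limit. Members of the list were also chosen with earlier results of these data known. In the second pair, unmarked 5xFAD-Dp16 over Dp16, 20 of the 31 were at least 1.5-fold higher, 19 of them the same genes, and the median was again 0.81, where 1.4% of all genes were that much higher. For Dp16 over wild-type, 2 sections without plaques that share the wild-type section with the first comparison, the list median was -0.07. In tissue spots, a higher level can come from more cells of a type or from more RNA per cell, and the 2 cannot be told apart.

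Cst7, the gene of cystatin F, an inhibitor of lysosomal proteases, ranked first among the genes chosen for a ratio of the same sign by region matching, by cluster matching and without matching, and in at least 7 of 9 regions. It was at 44.7 CPM (40.1 to 49.7) in unmarked 5xFAD spots and 0.702 CPM (0.397 to 1.15) in wild-type spots, from 397 and 16 UMIs, a log2 ratio of 5.99 (5.26 to 6.83). It was higher in 9 of 9 regions. In the second pair it was at 46.6 CPM in unmarked 5xFAD-Dp16 spots and 0.16 CPM in Dp16 spots. Itgax, an integrin of activated microglia and dendritic cells, gave 39 UMIs in unmarked 5xFAD spots and 6 in wild-type spots and stayed below the 5 CPM limit.

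The receptor and its adaptor were both higher. Trem2, the lipid-sensing receptor, was at 83.3 CPM (76.9 to 90.1) in unmarked 5xFAD spots and 27.5 CPM (25.4 to 29.8) in wild-type spots, a log2 ratio of 1.60 (1.43 to 1.76), with 1.55 in the second pair. Tyrobp, its signalling adaptor, was at 279 CPM (268 to 291) in unmarked 5xFAD spots and 106 CPM (101 to 110) in wild-type spots, a log2 ratio of 1.40 with 1.41 in the second pair. Both were higher in all 9 regions, and neither was higher in Dp16 than in wild-type (-0.19 and -0.07).

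Other members of the plaque list were also at the upper end. The chemokine Ccl6 was at 25.7 CPM in unmarked 5xFAD spots and 4.38 CPM in wild-type spots (log2 2.55, 3.02 in the second pair), and the chemokine Ccl3 at 10.0 and 1.55 CPM (2.70 and 4.08). Cd52, a small leukocyte surface glycoprotein, was at 42.8 CPM in unmarked 5xFAD spots and 12.5 CPM in wild-type spots (1.78 and 1.77). Bcl2a1b, an inhibitor of apoptosis, had log2 ratios of 2.15 in unmarked 5xFAD over wild-type and 1.41 in the second pair. It has near-identical copies in the genome, so its reads are uncertain. Among lysosomal members, Ctsd, the aspartyl protease cathepsin D, was at 582 CPM in unmarked 5xFAD spots and 305 CPM in wild-type spots (0.93 and 0.79), while Ctsb, cathepsin B, had 0.16 and 0.08. The most abundant member, the ferritin heavy chain Fth1, had 0.28 and, in the second pair, 0.33. The lowest was the receptor kinase Axl at 0.05, with 0.07 in the second pair.

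**Figure D1:**
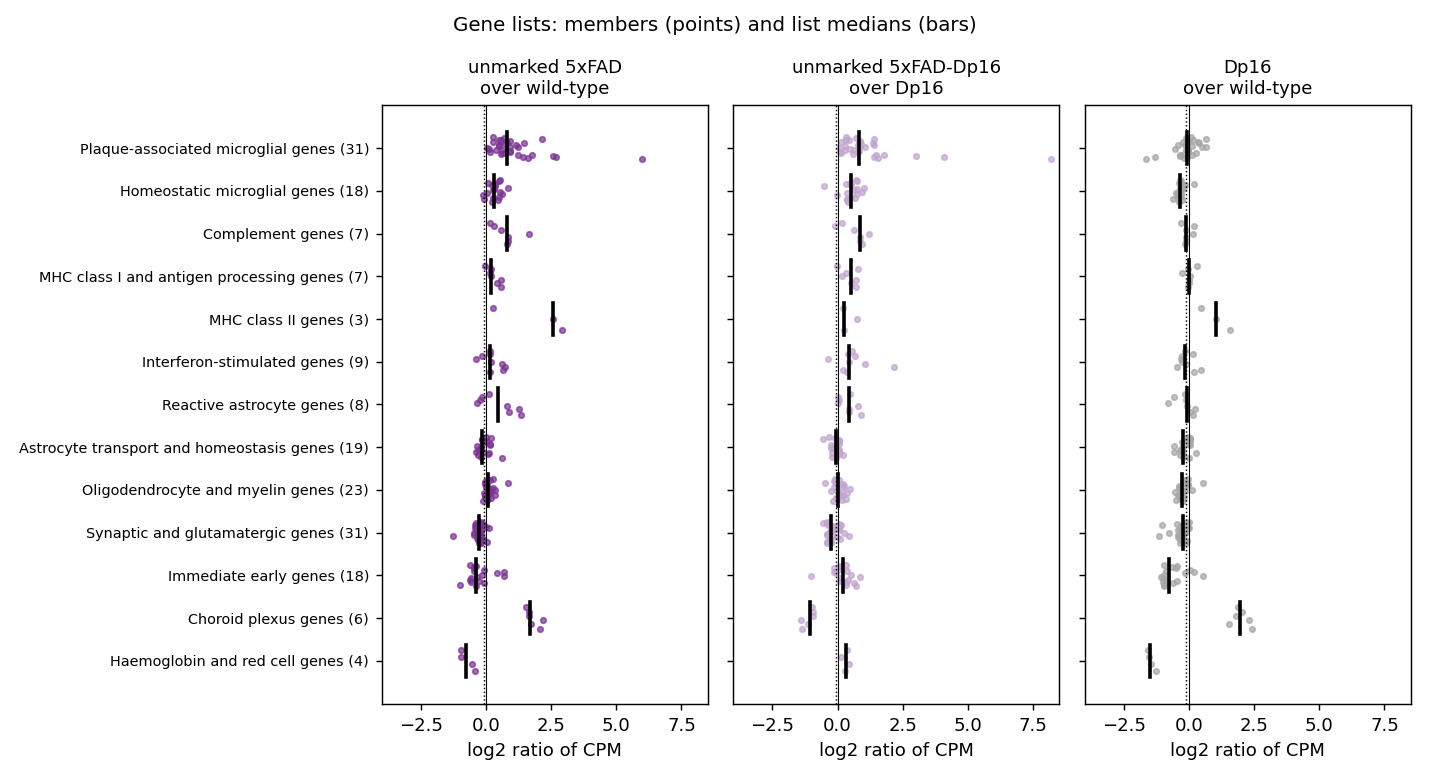
Log2 ratios of gene list members (points) and list medians (bars) for unmarked 5xFAD over wild-type, unmarked 5xFAD-Dp16 over Dp16, and Dp16 over wild-type, with the number of measured members in brackets and the median of all genes as a dotted line. The plaque-associated microglial list lies at 0.81 in both pairs with transgenes and at -0.07 between the 2 sections without, while the choroid plexus list is at 1.68, -1.06 and 1.96.

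Genes of microglia at rest had a smaller ratio than the plaque list. Of 18 homeostatic microglial genes measured, 2 were at least 1.5-fold higher in unmarked 5xFAD spots, none was lower and 16 lay above 0, with a median of 0.31, where 1.54% of all genes were that much higher and 34.3% lay above 0. In the second pair 8 of the 18 were at least 1.5-fold higher (1.4% of all genes) and the median was 0.53. Fcrls, an Fc receptor-like protein of microglia, was at 35.5 CPM in unmarked 5xFAD spots and 19.7 CPM in wild-type spots (log2 0.85). Csf1r, the receptor on which microglia depend for survival, had 0.50. The purinergic receptor P2ry12 had 0.21, Tmem119 -0.09 and Sall1, a transcription factor of microglial identity, -0.13, which was the lowest of the list. Values of P2ry12, Tmem119 and Sall1 in the second pair were 0.39, 0.37 and -0.02. The list median was -0.33 for Dp16 over wild-type, so the wild-type section was the higher of those 2.

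Complement genes were higher as well. Of 7 measured, 5 were at least 1.5-fold higher in unmarked 5xFAD spots in both pairs, with a median of 0.82 in unmarked 5xFAD over wild-type and 0.85 in the second pair. Of all genes, 1.54% were that much higher in the first pair and 1.4% in the second. C4b, a component of the classical pathway, was at 74.3 CPM (67.9 to 81.1) in unmarked 5xFAD spots and 23.9 CPM (21.8 to 26.2) in wild-type spots, from 569 and 503 UMIs, a log2 ratio of 1.63 with 1.19 in the second pair; it has a close copy, C4a, that could share its reads. The subunits of C1q, which starts the pathway, lay together: C1qb, the most abundant, was at 214 CPM in unmarked 5xFAD spots and 118 CPM in wild-type spots (0.86), and C1qa at 180 and 102 CPM (0.82, and 0.95 in the second pair). The membrane inhibitor Cd59a had 0.31 and Cr1l 0.15. C3 itself was below the limit, at 1.29 CPM in unmarked 5xFAD spots and 0.422 CPM in wild-type spots from 10 UMIs each, a log2 ratio of 1.61 (0.10 to 3.10).

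Of 7 class I antigen presentation genes measured, none was 1.5-fold higher in unmarked 5xFAD spots (1.54% of all genes) and their median was 0.20. In the second pair 3 of the 7 were that much higher (1.4% of all genes) and the median was 0.53. B2m, which encodes beta-2-microglobulin, was at 256 CPM in unmarked 5xFAD spots and 171 CPM in wild-type spots (0.58, and 0.70 in the second pair). It was higher in 9 of 9 regions, and the heavy chain H2-D1 had 0.57 and 0.70. Over wild-type, B2m and H2-D1 both lay just under the 1.5-fold limit. The 2 class II genes H2-Aa and Cd74 (the invariant chain) were far higher, at 9.14 and 20.5 CPM in unmarked 5xFAD spots, against 1.22 and 3.45 CPM in wild-type spots. Both passed the 5 CPM limit only through unmarked 5xFAD spots, so a ratio above 0 was fixed in advance by the limit. Their log2 ratios of 2.91 and 2.57 stood beside 0.25 and 0.73 in the second pair and beside 1.56 and 1.02 for Dp16 over wild-type, and were 2.18 and 1.83 without the spots of cluster 11, and 1.33 and 1.39 when spots were matched within expression clusters. The third class II gene measured, H2-DMa, had 0.26. Class II genes are also expressed by macrophages of the brain's borders, and of 9 border macrophage markers only Stab1 reached 5 CPM, at 6.39 CPM in unmarked 5xFAD spots and 4.24 CPM in wild-type spots. Mrc1 was at 1.28 CPM in unmarked 5xFAD spots and 1.26 CPM in wild-type spots. Their part in the class II difference was not tested.

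Interferon-stimulated genes were mixed. Of 9 measured, 3 were at least 1.5-fold higher in unmarked 5xFAD spots (Ifi27l2a at 0.71, Ifi27 at 0.64 and Bst2 at 0.63) and none lower. Of all genes, 1.54% were that much higher. The list median was 0.14, and 0.42 in the second pair. Stat2 was lowest, at -0.38. Ifit1, below the limit, was at 1.27 CPM in unmarked 5xFAD spots and 2.35 CPM in wild-type spots, from 14 and 47 UMIs. Its log2 ratio was -0.88, with an interval that spans 0 (-2.00 to 0.11). Members below the limit lay on both sides of 0, and Ifit2 had 0.83 (0.19 to 1.45).

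Reactive astrocyte genes were partly higher in unmarked 5xFAD spots, and most astrocyte genes of normal function were not. Of 8 reactive astrocyte genes measured, 4 were at least 1.5-fold higher in unmarked 5xFAD spots (1.54% of all genes) and none lower. Above 0 lay 5 of the 8, against 34.3% of all genes. The list median was 0.46, and 0.45 in the second pair, where 2 were at least 1.5-fold higher (1.4% of all genes). Gfap, the intermediate filament of reactive astrocytes, was at 177 CPM (168 to 188) in unmarked 5xFAD spots and 70.5 CPM (66.7 to 74.4) in wild-type spots, a log2 ratio of 1.33 with 0.91 in the second pair. Serpina3n, a secreted protease inhibitor, was at 43.6 CPM in unmarked 5xFAD spots and 17.9 CPM in wild-type spots (1.28, and 0.45 in the second pair). The filament Vim was at 40.7 CPM in unmarked 5xFAD spots and 22.3 CPM in wild-type spots (0.87, and 0.44 in the second pair). S100a6, a calcium-binding protein, had 0.81 and, in the second pair, 0.78. The most abundant member, Cst3, or cystatin C, had 0.11. Tm4sf1 had -0.16, Stat3 -0.22, and Fbln5 was lowest at -0.35.

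The 19 genes of astrocyte transport and homeostasis had a median of -0.16, close to that of all genes, and 1 of them was at least 1.5-fold higher (1.54% of all genes). That gene was the water channel Aqp4, at 81.3 CPM in unmarked 5xFAD spots and 53.8 CPM in wild-type spots (0.60), with -0.05 in the second pair. The glutamate transporter Slc1a2 had -0.20, Aldoc 0.10, and the gap junction gene Gja1 was lowest at -0.40. Values of Slc1a2, Aldoc and Gja1 in the second pair were -0.20, -0.20 and 0.05.

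Among the remaining genes ranked highest, A2m, the protease inhibitor alpha-2-macroglobulin, was at 15.9 CPM in unmarked 5xFAD spots and 3.71 CPM in wild-type spots (log2 2.10, and 0.69 in the second pair). Most of its reads came from 2 regions: 40 and 51 of its 119 UMIs in unmarked 5xFAD spots lay in FB and in Thalamus, where it was at 39.96 and 33.2 CPM, against 7.49 and 6.47 CPM in wild-type spots. It was higher in 7 of 9 regions. Myoc, a secreted protein of the meninges, had 2.16 and, in the second pair, 0.21. Cd24a, a surface glycoprotein of immature neurons and ependyma, had 1.39 and, in the second pair, -0.80. A2m, Myoc (4.52 CPM) and Cd24a (4.14 CPM) were below 5 CPM in wild-type spots, so a ratio above 0 was fixed in advance by the limit. Genes of neighbouring tissues differed beside Myoc and Cd24a. The 3 measured meningeal genes, Myoc among them, had a median of 0.93, against -0.46 in the second pair. The 6 choroid plexus genes had a median of 1.68, against -1.06 in the second pair and 1.96 for Dp16 over wild-type. Of these, Folr1 (2.89 CPM in wild-type spots) and Sostdc1 (3.12 CPM) also passed the limit only through unmarked 5xFAD spots. The summed level of the choroid plexus genes was 4591 CPM in unmarked 5xFAD spots, 1011 CPM in wild-type, 1664 CPM in unmarked 5xFAD-Dp16 and 7122 CPM in Dp16 spots, over the same 9 regions. Leaving out spots with 1% or more of their UMIs as Ttr, the carrier protein that marks choroid plexus, left 947 unmarked 5xFAD and 1704 wild-type spots. These lay in 8 matched regions in place of 9. There the plaque-associated list was at 0.80, Gfap at 1.20 and Myoc at 1.61.

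Thy1, whose regulatory elements drive the transgenes, is itself a neuronal surface glycoprotein. It was at 1257 CPM (1235 to 1279) in unmarked 5xFAD spots and 591 CPM (581 to 601) in wild-type spots, a log2 ratio of 1.09, with 0.93 in the second pair and -0.20 for Dp16 over wild-type. It was higher in 8 of 9 regions, reaching 1.78 in Hippocampus, 1.77 in Cortex PTL and 1.71 in Cortex AUC. In Thalamus it was at 878 CPM in unmarked 5xFAD spots and 915 CPM in wild-type spots (-0.06), although wild-type Thalamus had the highest Thy1 level of the 9 wild-type regions. Mouse App was at 827 CPM in unmarked 5xFAD spots and 907 CPM in wild-type spots (-0.13). No member of 13 genes of APP processing differed by 1.5-fold in either direction, where 3.04% of all genes did. Their median was -0.07, near the -0.08 of all genes. Whether reads of the transgene cassette were counted as mouse Thy1 was not tested.

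The unmarked spots lay between wild-type and marked spots for nearly all of the plaque list. This comparison used 10 regions with at least 10 spots of each class of 5xFAD spots, so its levels for unmarked spots differ slightly from those above; it had 268 plaque, 539 neighbour, 1095 unmarked and 2098 wild-type spots. Of the 31 genes, 27 stood in the order plaque, neighbour, unmarked, wild-type from highest to lowest, an order held by 4.49% of all genes. The list holds genes associated with plaques and was chosen with earlier results of these data known. A high level at plaques is thus partly built into it, and the order is no independent check. The median log2 ratio of the 31 genes was 1.20 for plaque over unmarked spots and 0.43 for neighbour over unmarked spots, where the medians of all genes were -0.02 and 0.01.

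**Figure D2:**
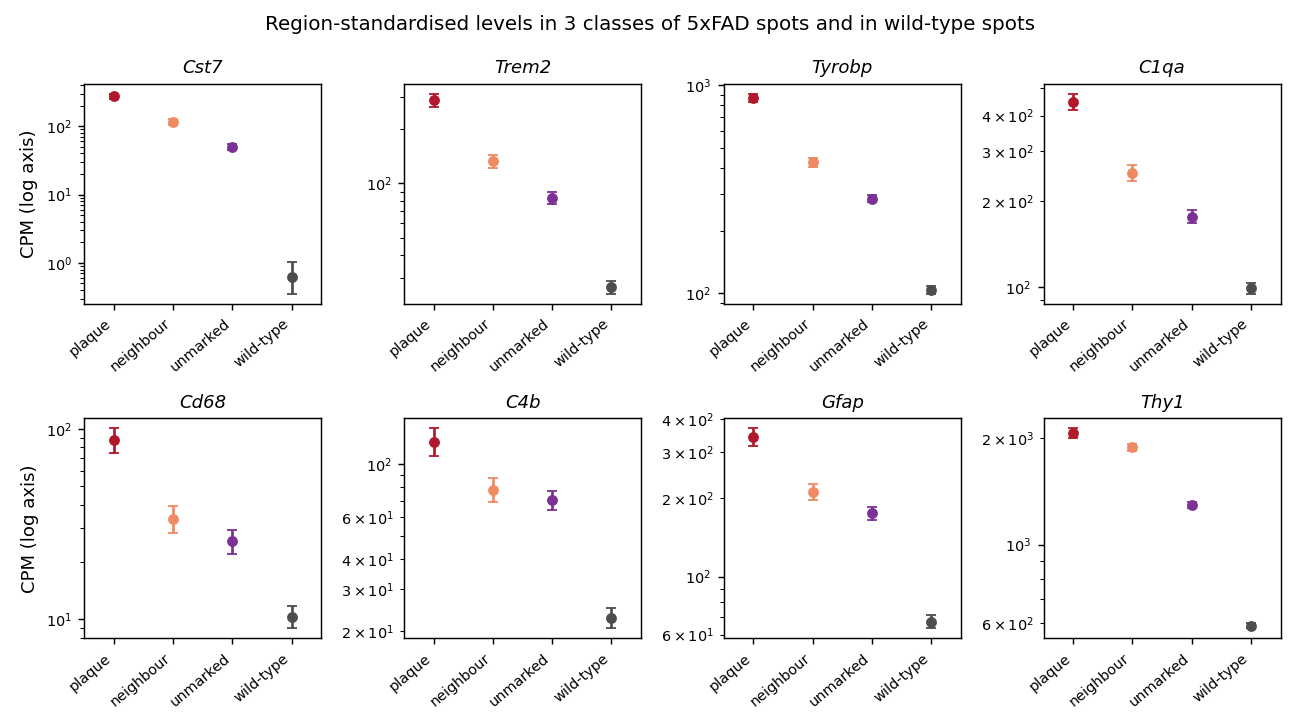
CPM of 8 genes (log axes, each with its own range) in plaque, neighbour and unmarked spots of the 5xFAD section and in wild-type spots, standardised over 10 regions, with bars for 95% counting intervals. All 8 genes step down from plaque to neighbour to unmarked to wild-type spots, and Cst7 spans the widest range, from 276 to 0.628 CPM.

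How far the unmarked spots stood above wild-type depended on the gene. Cst7 was at 276 CPM in plaque spots, 116 in neighbours, 50.1 in unmarked 5xFAD spots and 0.628 in wild-type spots, so that the excess of unmarked spots over wild-type was 17.9% of the excess of plaque spots. The same share was 21.5% for Trem2 (288, 133, 83.0 and 26.6 CPM in plaque, neighbour, unmarked and wild-type spots) and 23.7% for Tyrobp. It was 22.2% for C1qa, 25.9% for C1qb, 39.0% for Gfap (342, 211, 175 and 67.1 CPM in the same 4 classes), 47.3% for C4b (124, 77.8, 70.3 and 22.7 CPM) and 47.9% for Thy1. At the other end it was 12% for the secreted glycoprotein Spp1 and 14.2% for the growth factor Igf1, both of which were high at plaques. A2m was no higher in plaque spots (12.97 CPM) than in unmarked spots (14.8 CPM), and Myoc was lower in plaque spots, at 4.83 against 18.5 CPM.

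In the 5xFAD-Dp16 section, with 349 plaque and 1414 unmarked spots over 11 regions, all 31 genes of the plaque list were higher in plaque than in unmarked spots. Of all 11008 genes, 5637 were. In neighbours 29 of the 31 were higher than in unmarked spots, against 6006 of all 11008 genes. The excess of unmarked spots over Dp16 was 16.4% of that of plaque spots for Cst7, 18.7% for Trem2, 21.8% for Tyrobp, 31.7% for Gfap and 34.4% for C4b.

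Counting UMIs over the whole 5xFAD section without the 6 clusters left out gives the same picture by location. Unmarked spots were 58.7% of spots and gave 56.8% of all UMIs, but 23.7% of Cst7 UMIs, 34.6% of Trem2 UMIs and 36.9% of Tyrobp UMIs. They gave 45.6% of Gfap UMIs, 47.6% of C4b UMIs and 48.5% of Thy1 UMIs. Within the unmarked spots Cst7 was uneven: 51 of 1208 spots held 3 or more UMIs, with a highest of 13, and these 51 carried 54.3% of the class's Cst7 UMIs. No Cst7 UMI was found in 80.5% of the unmarked spots.

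The share of spots with any UMI of Cst7 or Itgax shows this across groups. Each spot was thinned at random to 5000 UMIs, without the spots of lower depth (144 unmarked 5xFAD and 165 wild-type). The share was 11.99% of unmarked 5xFAD spots (9.96 to 14.3%, 111 of 926) and 0.334% of wild-type spots (0.123 to 0.725%, 6 of 1798). Without thinning it was 19.6% and 0.866%. The same share was 50.0% in plaque spots (117 of 234) and 26.1% in neighbours (117 of 449), and in the second pair 9.81% in unmarked 5xFAD-Dp16 spots and 0.0563% in Dp16 spots. Free RNA can put a UMI in a spot whose cells lack the gene. Plaque and neighbour spots of the 5xFAD section held 874 and 643 Cst7 UMIs, a source the wild-type section lacks, and the part of spread from them in the unmarked share was not tested. These intervals take spots as independent, which adjoining spots are not.

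**Figure D3:**
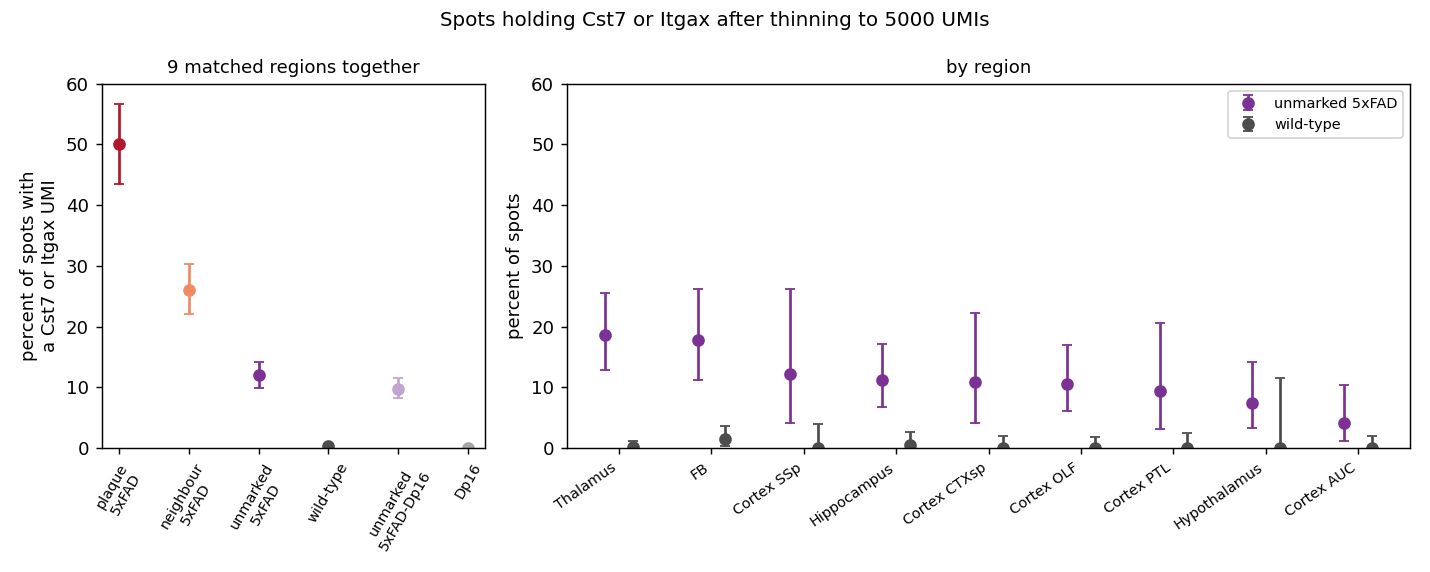
Percent of spots with at least 1 UMI of Cst7 or Itgax after thinning to 5000 UMIs, with exact binomial 95% intervals, for 9 regions together (left) and for unmarked 5xFAD and wild-type spots in each region (right). Plaque spots are at 50.0%, unmarked 5xFAD spots at 11.99% and wild-type spots at 0.334%, and in every region the unmarked 5xFAD share is above that of wild-type.

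By region the share in unmarked 5xFAD spots was highest in Thalamus, at 18.6% (30 of 161), and in FB, at 17.9% (20 of 112). It was 12.2% in Cortex SSp, 11.3% in Hippocampus, 10.9% in Cortex CTXsp, 10.6% in Cortex OLF, 9.43% in Cortex PTL and 7.48% in Hypothalamus. The lowest was Cortex AUC with 4.17% (4 of 96). The intervals of neighbouring regions in this order overlap. In wild-type spots the UMIs lay in FB (4 of 276 spots), Hippocampus (1 of 213) and Thalamus (1 of 478), and the other 6 regions had 0 of 831 spots. This allows a share of up to about 0.361%, an approximate limit and not the exact interval used for the other shares.

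List medians by region, computed with 0.5 UMI added to each count, put Thalamus first as well. The plaque-associated list had a median of 1.53 there, against 0.82 in Cortex CTXsp, 0.76 in Hippocampus, 0.73 in Cortex OLF, 0.63 in both FB and Cortex PTL, 0.61 in Cortex AUC and 0.47 in Hypothalamus. Cortex SSp stood apart with 0.03 from 52 unmarked spots, although Cst7 was at 19.1 CPM there in unmarked 5xFAD spots and 0.965 CPM in wild-type spots. Complement was also highest in Thalamus (1.34) and lowest in Cortex SSp (-0.89). Wild-type Hypothalamus held only 36 spots.

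**Figure D4:**
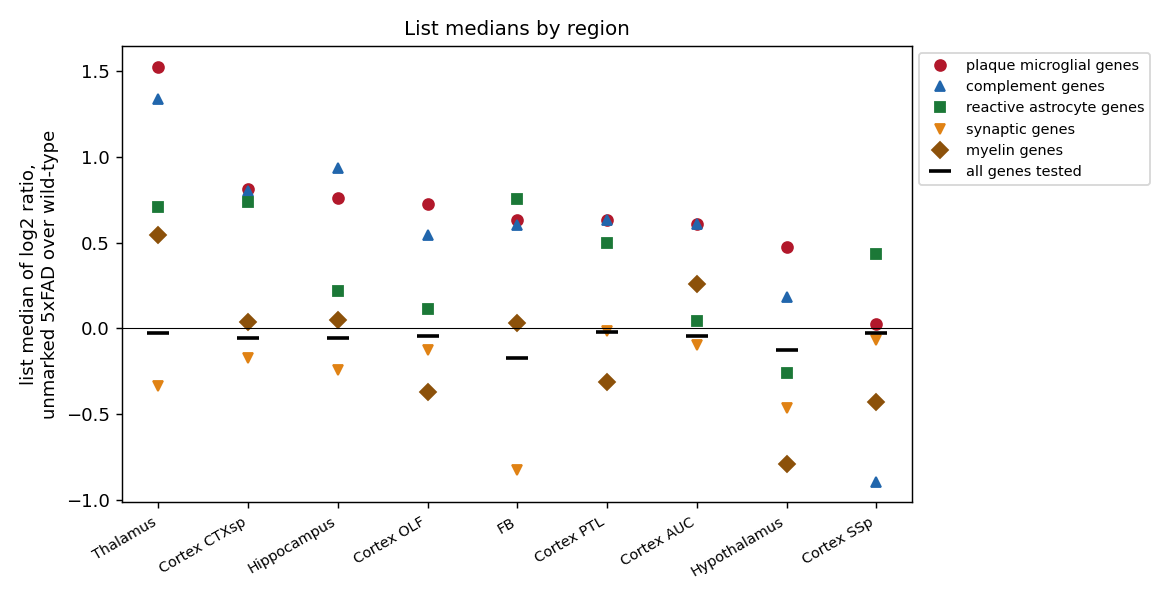
Medians of the log2 ratio, unmarked 5xFAD over wild-type, of 5 gene lists in each of 9 regions, with the median of all genes tested as a bar. Plaque-associated microglial genes are highest in Thalamus at 1.53 and near 0 in Cortex SSp, and the myelin list ranges from 0.54 in Thalamus to -0.79 in Hypothalamus.

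In Thalamus single genes were far apart. Trem2 was at 121 CPM in unmarked 5xFAD spots and 22.7 CPM in wild-type spots (2.41), Gfap at 141 and 20.9 CPM (2.75), C4b at 56.6 and 9.46 CPM (2.58) and Serpina3n at 76.7 and 6.14 CPM (3.64). Serpina3n was higher in 7 of 9 regions, but its size varied: in Hippocampus, where wild-type spots express it, it was at 68.9 CPM in unmarked 5xFAD spots and 59.6 CPM in wild-type spots (0.21), and without Thalamus its ratio was 0.71 in place of 1.28. Without Thalamus the plaque-associated list had a median of 0.59. The myelin list moved the same way in Thalamus, with a median of 0.54 there against 0.07 over all 9 regions, and the part of tissue makeup in the thalamic values was not tested.

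Expression cluster 11 held 29 of the 1070 unmarked 5xFAD spots, 12 of them in FB and 9 in Thalamus, and 1 of the 1963 wild-type spots. Without it the plaque-associated list had a median of 0.62, Cst7 a ratio of 5.83, Trem2 1.31, C1qa 0.61 and C4b 1.58. In Thalamus the list then had 1.25 and in FB 0.38. Hippocampus held 4 unmarked 5xFAD spots of the cluster and its 1 wild-type spot, and without them Cst7 there was at 25.1 CPM in unmarked 5xFAD spots and 0.287 CPM in wild-type spots, against 34.2 and 1.43 CPM with them.

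Most synaptic genes had ratios slightly below 0. Of 31 synaptic and glutamatergic genes, 28 had a ratio below 0, against 65.7% of all genes, with a median of -0.27 against -0.08 for all genes. Only Shank3 was at least 1.5-fold lower (1.51% of all genes), and none was higher. Snap25, a protein of the vesicle fusion machinery, was at 2064 CPM in unmarked 5xFAD spots and 2587 CPM in wild-type spots (-0.33), and Camk2a, a calcium-dependent kinase of excitatory synapses, at 133 and 183 CPM (-0.46). Nrgn, a calmodulin-binding protein of dendritic spines, had 0.12, the highest of the list. The median was -0.24 in the second pair, and it was also -0.24 for Dp16 over wild-type, so sections without transgenes differed by as much. By region it was lowest in FB (-0.83), where the median of all genes was also lowest (-0.17).

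Immediate early genes, which neurons switch on within minutes of activity, had a median of -0.39, with 4 of 18 at least 1.5-fold lower and 2 higher, where 1.51% of all genes were that much lower and 1.54% higher. Egr1 was at 107 CPM in unmarked 5xFAD spots and 161 CPM in wild-type spots (-0.59) and Fosb at 5.13 and 10.2 CPM (-0.99), whereas Btg2 and Npas4 had 0.70 and 0.68. The second pair did not have this: its median was 0.20, and that of Dp16 over wild-type was -0.75. The level of these genes was thus highest in the wild-type section, at a summed 887 CPM, against 702 CPM in unmarked 5xFAD, 628 CPM in unmarked 5xFAD-Dp16 and 532 CPM in Dp16 spots.

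The 10 genes ranked lowest sort in the same way. Arhgef26, a guanine nucleotide exchange factor, was at 6.12 CPM (4.58 to 7.99) in unmarked 5xFAD spots and 15.8 CPM (14.2 to 17.6) in wild-type spots, a log2 ratio of -1.37. It was lower in 9 of 9 regions and had -1.27 in the second pair and -0.19 for Dp16 over wild-type. Nr4a3, a nuclear receptor induced by activity, had -1.16, with -0.43 in the second pair and -0.77 for Dp16 over wild-type. Arhgef26 and Nr4a3 were the only 2 of the 10 below 0 in the second pair.

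Like Nr4a3, the other 8 were also more than 1.5-fold lower in Dp16 than in wild-type. Of the genes ranked lowest only Arhgef26, at -0.19, was not. Shank3, a scaffold of the postsynaptic density, was at 16.7 CPM in unmarked 5xFAD spots and 40.5 CPM in wild-type spots (-1.28, and 0.45 in the second pair), with -1.16 for Dp16 over wild-type. Sgk1, a kinase induced by glucocorticoids, was at 67.5 and 148 CPM (-1.13, and 1.36 in the second pair), with -1.69 for Dp16 over wild-type. Apold1, an endothelial gene, had -1.47 and, in the second pair, 1.56. Klf2, a transcription factor responsive to blood flow, had -1.04 and 0.87 in these pairs, and the transcript Gm49980 -1.29 and 0.92. Dp16 over wild-type was -2.13, -1.57 and -1.57 for these genes. Haemoglobin and red cell genes moved with them: their median was -0.75 in unmarked 5xFAD over wild-type, 0.33 in the second pair and -1.51 for Dp16 over wild-type. The part of blood content in these levels was not tested, and with 1 section each, genotype and section cannot be told apart.

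Hormone genes of hypothalamus and pituitary were the extreme. Pmch, which encodes melanin-concentrating hormone, gave 8 UMIs in unmarked 5xFAD spots and 1420 in wild-type spots, and Hcrt, the orexin precursor, 10 and 298. In wild-type Hypothalamus Pmch was at 1576 CPM, against 2.26 CPM in unmarked 5xFAD spots of that label, and in wild-type Thalamus it was at 49.3 CPM, against 1.30 CPM in unmarked 5xFAD spots. Gh, growth hormone, gave 1 UMI in unmarked 5xFAD spots and 443 in wild-type spots, of which 357 lay in Cortex OLF. Its log2 ratio was -8.68 (-14.0 to -6.20). Over the same 9 regions in all 4 sections, Pmch was at 0.872 CPM in unmarked 5xFAD, 226 CPM in wild-type, 1.07 CPM in unmarked 5xFAD-Dp16 and 0.639 CPM in Dp16 spots.

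**Figure D5:**
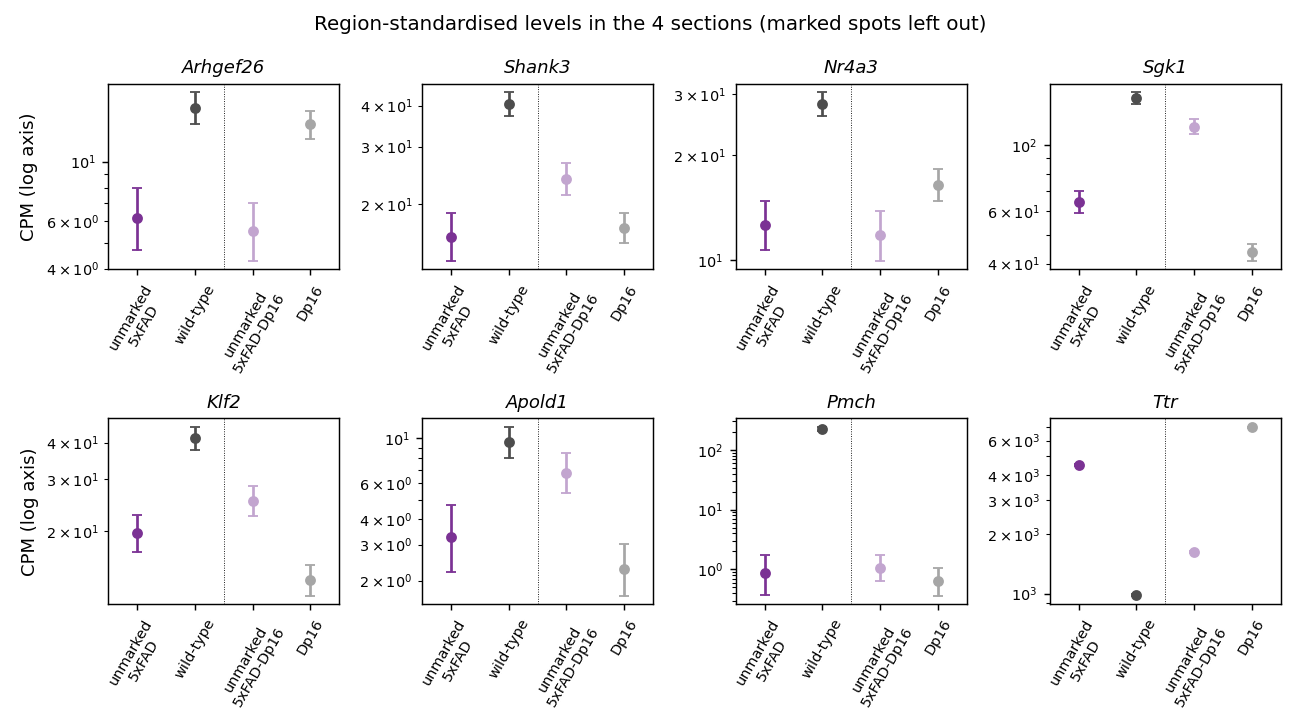
CPM (log axes, each with its own range) in unmarked 5xFAD, wild-type, unmarked 5xFAD-Dp16 and Dp16 spots, standardised over the same 9 regions, with bars for 95% counting intervals. Arhgef26 is low in both sections with transgenes, whereas Sgk1, Klf2 and Apold1 are lower in unmarked 5xFAD than in wild-type spots and higher in unmarked 5xFAD-Dp16 than in Dp16 spots, and Pmch is high in the wild-type section alone.

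In several other gene groups few or no members passed 1.5-fold, which 3.04% of all genes did. The 71 genes of oxidative phosphorylation had a median of 0.03 with none past 1.5-fold, 22 genes of cholesterol synthesis -0.09, 13 genes of oligodendrocyte precursors -0.08 with Cspg4 higher (0.62) and Gpr17 lower (-0.68), and 23 myelin genes 0.07, where only Enpp2, a phospholipase also made by choroid plexus, was higher (0.84). Values of Cspg4, Gpr17 and Enpp2 in the second pair were -0.24, -0.50 and -0.47. Lysosomal genes outside the plaque list had a median of -0.02, with Ctsh (0.78) and Gusb (0.61) higher of 27 measured. Lipid carriers had a median of 0.18 with none of 11 past 1.5-fold. Apoe, the main lipid carrier of the brain, was at 2272 CPM in unmarked 5xFAD spots and 1767 CPM in wild-type spots (0.36, and 0.09 in the second pair), and higher in 8 of 9 regions.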

How the data were processed

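Visium counts from 4 sections, 1 per genotype, were deposited as UMI counts per gene and spot (19090 genes, 10549 spots) with region labels, cluster numbers, plaque and neighbour marks and a percent of mitochondrial UMIs per spot, per the file headers. Space Ranger, Seurat and the build mm10 are named in the submitters' processing notes, and the sources used here do not say how the authors made the marks, clusters and regions.

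From the deposited counts, UMIs were summed per group and region, expressed as CPM and averaged over regions with weights from the pooled share of spots (Python 3.11.15, numpy 2.4.6, pandas 2.3.3). Groups were compared within regions of at least 30 spots each. Intervals for ratios were exact binomial and for levels exact Poisson (scipy 1.17.1), at 95%, on effective counts. Where a group had a count of 0, a floor of 3 counts was used. Genes below a mean of 5 CPM were not ranked. With 1 section per genotype no p-value was computed, and the self-check of the code used simulated data. TMM factors came from edgeR 4.0.16 in R 4.3.3. Spot shares were taken after thinning to 5000 UMIs, with exact Clopper-Pearson intervals.

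The named genes were a set of 12 given genes, the 12 highest and 10 lowest by the least extreme ratio of 3 matchings with the same sign in at least 7 of 9 regions, and, in each of 31 lists, the most abundant and extreme members. Pth2 and a few other genes outside this rule were chosen after their values were seen. Members and lists were chosen with earlier results of these data known. Doublet calling does not apply to spots. Alternatives covered scaling, matching, filters, clusters and regions left out. Results for a few list members are not reported here.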

Additional observations from a re-analysis of the deposited data

Results flagged for a closer look

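Several genes stood on opposite sides of 0 in the 2 pairs, and these differences were not tested. Unmarked 5xFAD over wild-type and unmarked 5xFAD-Dp16 over Dp16 had log2 ratios of -1.47 and 1.56 for Apold1, -1.13 and 1.36 for Sgk1, -1.04 and 0.867 for Klf2, and -1.29 and 0.919 for Gm49980. For the hormone genes they were -7.27 and 0.863 for Pmch and -8.68 and 3.95 for Gh. For Cd24a they were 1.39 and -0.796, and the median of the choroid plexus genes was 1.68 and -1.06. In spots outside the matched comparison (regions too small in one group, or in the clusters left out), Cst7 was at 22.2 CPM in 325 unmarked 5xFAD spots, from 99 UMIs, and at 0.512 CPM in 758 wild-type spots, from 5 UMIs.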

How the results depend on the processing

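The plaque-associated list had a median of 0.81 and ranged from 0.53 to 1.04 over 23 alternatives, with 0.56 when regions were weighted equally and 0.53 without matching. The counts of genes past 1.5-fold were 169 higher and 166 lower. They were 254 higher without mitochondrial, ribosomal protein and haemoglobin genes, 53 and 43 among genes of at least 20 CPM, 2132 and 1293 with no filter on level, 47 and 13 at a fold of 2, and 94 lower relative to the median of all genes; fewer or more genes enter by construction in the filters. The share of spots with Cst7 or Itgax, 11.99% of unmarked 5xFAD and 0.334% of wild-type spots, was 19.6% and 0.866% unthinned and 4.43% and 0.0556% with 2 UMIs required, and 17.4% of 5xFAD spots with neighbours kept. Over 21 alternatives Cst7 ranged from 5.52 to 6.84, Trem2 from 1.14 to 1.93, C4b from 1.24 to 1.70, Gfap from 0.96 to 1.57, Thy1 from 0.96 to 1.44 and Arhgef26 from -1.51 to -1.22. A change of sign was counted only where the interval of the reported value lay wholly on 1 side of 0. Of the values for genes, 20 were counted so, 2090 others stayed within that interval and 429 lay outside it. Of those for lists, 1, 647 and 59 did. Medians with intervals that span 0 also crossed 0 without being counted, such as myelin genes (down to -0.18) and hypothalamic genes (up to 0.12). The thalamic list changed sign with matching by cluster (0.30), as did Prkcd (0.19), Synpo2 (0.068), Cst3 (-0.053), Lamp5 (-0.0062) and Cartpt (-0.0070). Cartpt was -0.48 in regions of at least 100 spots, -2.02 with all clusters, -0.043 with neighbours, -0.40 without Cortex CTXsp and -0.39 without Ttr-rich spots, where Igkc was -0.29. Without matching, Atp6v0c was 0.0012 and Rprm 0.072, and Rprm was 0.061 with neighbours. Hpca was 0.011 with regions weighted equally and 0.055 without FB, where Cplx3 was 0.031. Calb2 was -0.12 without Thalamus, Trh -0.74 without Cortex OLF and Cox8a 0.0074 with TMM. The cause was not tested in any of these. The alternatives leaving out cluster 11 and leaving out Ttr-rich spots were chosen after seeing the data. No paired analysis was possible because each genotype has 1 section and the sections carry no shared replicate number. Depth limits genes of few UMIs, such as Itgax.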

Other observations

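Genes of single brain regions differed between the unmarked 5xFAD and wild-type spots even within matched region labels. Pth2, a neuropeptide gene chosen after its values were seen, gave 137 UMIs in unmarked 5xFAD spots and 2 in wild-type spots, a log2 ratio of 8.001 (6.10 to 11.1), but it was higher in only 3 of 9 regions and also stood at 6.17 for Dp16 over wild-type. Trh, the precursor of thyrotropin-releasing hormone, was at 12.9 CPM in unmarked 5xFAD spots and 4.01 CPM in wild-type spots (1.69), but it was higher in only 3 of 9 regions and stood at -0.74 without Cortex OLF. The neuropeptide Gal was at 2.62 and 9.54 CPM (-1.86), with 1.92 in the second pair and -2.33 for Dp16 over wild-type. Of 8 hypothalamic genes measured, 4 were at least 1.5-fold lower and 1 higher, where 1.51% of all genes were that much lower and 1.54% higher.

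Interneuron genes had a median of -0.10, with 6 of 16 above 0, against 34.3% of all genes. The calcium-binding protein gene Calb2 was the only member past 1.5-fold (3.04% of all genes), at 0.64, with 0.35 in the second pair, and Reln had 0.35. In the second pair 2 were at least 1.5-fold higher, Tac1 at 1.59 and Vip at 0.62, and 4 lower, where 1.4% of all genes were that much higher and 1.06% lower. Sst, somatostatin, was at 414 CPM in unmarked 5xFAD spots and 605 CPM in wild-type spots (-0.55, and -0.65 in the second pair), and Pvalb, parvalbumin, at 156 and 225 CPM (-0.53 and -0.80). For Dp16 over wild-type they were 0.25 and -0.06. The 11 GABA-A receptor genes measured had a median of -0.24, with none past 1.5-fold (3.04% of all genes), and the 14 vessel genes -0.18. Medians of these lists in the second pair were -0.08 and 0.08. Among chaperone genes the heat shock gene Hspa1a was lower, at 10.4 CPM in unmarked 5xFAD spots and 17.4 CPM in wild-type spots (-0.75, and 0.17 in the second pair).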
